A study of Caenorhabditis elegans with 93 samples.

Results

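The 500 most accessible regulatory elements were taken from 31618 promoters and enhancers of C. elegans at which ATAC-seq reads had been counted in embryos. Members were chosen by their measured accessibility, as the elements of chromosomes I to V with the highest mean normalized count over all 31 ATAC-seq libraries. The 6433 elements of the X chromosome were not ranked, which left 24685 other autosomal elements for comparison. Their level therefore chose the members, so it is described below and was not tested. A normalized count is the number of reads at an element divided by the size factor of its library.

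N2, the standard wild-type laboratory strain, was propagated as 3 Mutation Accumulation lineages (A, B and C) at 20 degrees without any agent, each founded anew in every generation by a pair of hermaphrodites. Embryos were collected at every even generation between 2 and 20, and at generation 0, the pre-mutation-accumulation (PMA) generation that precedes the bottleneck. Each data type had 28 later libraries and 3 generation 0 libraries, with 1 library for each lineage and generation. Lineage B was without a generation 4 library in every data type, and lineage C was without generation 8 in ATAC-seq and without generation 14 in RNA-seq and small RNA-seq. The libraries of a lineage descend from one another and were not cultured as replicates, so each p-value below measures the spread between these libraries, part of which may be technical. A library holds whole embryos of many cell types, in which fewer cells with an open element and less opening per cell cannot be told apart.

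In ATAC-seq a transposase inserts sequencing adapters where DNA is not wrapped in nucleosomes, and open DNA marks promoters, where transcription starts, and enhancers, which bind transcription factors at a distance. An element that is open in most cells gives many reads from whole embryos, whereas one that is open in a few cells gives few. 22G-RNAs are small RNAs of C. elegans that RNA-dependent RNA polymerases make on messenger RNAs, antisense to them, and that Argonaute proteins use in gene silencing and in inheritance through the germ line.

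Reads counted in elements numbered 2995631 to 12251653 in the later ATAC-seq libraries and 7625441 to 9472742 at generation 0. A member held 258 reads or more in every library, with a median of 1165. All 14 embryo marker genes were present in the RNA, with a summed normalized count between 38025 and 66036 in later libraries and between 54144 and 76319 at generation 0, and 10 of the 14 fell by limma at an adjusted p under 0.05. The 8 germ line markers had sums of 5575 to 8475 in later libraries and 9778 to 17244 at generation 0, and all 8 fell. The cuticle genes, listed as markers of larva and adult, had sums of 159386 to 282080 in later libraries and 133056 to 151637 at generation 0. Of 7 tested 2 had risen, and the stage that their RNA came from was not tested. Of the 6 yolk protein genes 1 rose and 1 fell, with sums of 1901 to 3042 in later libraries and 2667 to 3605 at generation 0. Of 32 sperm genes 2 reached a mean of 10 and neither passed, with sums of 356.6 to 814.1 in later libraries and 478.3 to 592.5 at generation 0. The part of these marker shifts in the results for nearest genes was not tested.

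The most accessible element lay at IV:13887613-13887763, between protein-coding genes, 391 bases upstream of the nearest start of lin-66, a gene of the heterochronic pathway that times larval development. Its mean was 11242 normalized counts, 95.6-fold the median element of the whole table (117.6). The second element averaged 6087, the tenth 4163, the hundredth 1935 and the median member 1158, 9.84-fold the median element. Just inside the limit were an element in the span of pck-2 with 799.76 and one in lin-28 with 798.08, and just outside it were elements of zip-12 with 797.34 and fbxa-10 with 796.35. The limit of 500 thus fell in a continuous decline of levels. The members held 12.8% of all reads in elements on average. On the X chromosome 198 elements had a higher mean than the lowest member, and 361 members would have remained if X had been ranked too.

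Most members lay between genes, upstream of a transcript start. Their middle was between protein-coding genes in 329 of 500 (65.8%), against 50.4% of the other autosomal elements, and in a coding exon in 4 (0.800%), against 14.0%. Introns held 139 members (27.8%), against 28.6% of the others, and 5′ UTRs held 22 (4.40%), against 4.49%. The members lay upstream of the nearest protein-coding transcript start in 403 cases (80.6%), against 65.3%. A start was within 250 bases of 118 members (23.6%), against 33.9% of the others, and the median distance was 794 bases, against 588. Coordinates are those of the assembly WBcel235 with the Ensembl annotation, and these shares are a description without a test.

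Genes for snoRNAs, snRNAs, tRNAs or miRNAs were close to 18 members, within 250 bases (3.6%), against 0.907% of the other autosomal elements. Genes of snoRNAs, which guide the modification of ribosomal RNA, were near 7 members. Genes of snRNAs of the spliceosome were near 6 members, tRNA genes near 3 and miRNA genes near 2. Chromosome I held 136 members (27.2%, against 19.1% of the others) and chromosome V held 77 (15.4%, against 23.0%), while chromosomes II, III and IV held 101, 89 and 97. No members overlapped, but 63 had another member within 1000 bases, in 35 adjacent pairs, so that neighbours share their surroundings and are not independent.

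How far the members held their rank differed with their level, and the mean over these same libraries had chosen them, so the counts here are a description. The element at lin-66 ranked first in all 31 libraries, and none of the 10 highest members ranked below 46 in any library. The 500 highest autosomal elements of each library were then listed by themselves, and 241 members were in that list in all 31 libraries, among them every member of ranks 1 to 100. At least 24 of the 31 libraries listed 401 members, and 14 members were listed in fewer than 16. None of the 100 lowest members, where neighbours in rank differ by small steps, was listed in all libraries. In total 914 autosomal elements entered the list of at least 1 library, and 497 members stayed within the highest 2000 in every library. Single ranks moved widely, between 44 and 1112 for the element at Y17D7C.1 and between 3 and 353 for that in cmk-1.

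The normalized level of the members, which is relative to the other reads of a library, moved as a block. Their median normalized count was lowest in generation 4 of lineage A with 506.2 and highest in generation 18 of lineage C with 1936, a 3.82-fold range. The 3 generation 0 libraries differed as well, with medians of 1209 in lineage A, 727.1 in lineage B and 1659 in lineage C. Over the same libraries the median of the other autosomal elements stayed between 106.7 and 114.6. Size factors centre the typical element of each library, so this narrow range is set by the scaling and is no measure of stability. The share of reads in members followed the same order, with 6.25% in generation 4 of lineage A and 18.3% in generation 18 of lineage C, around a median of 13.90% in later libraries.

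**Figure D1:**
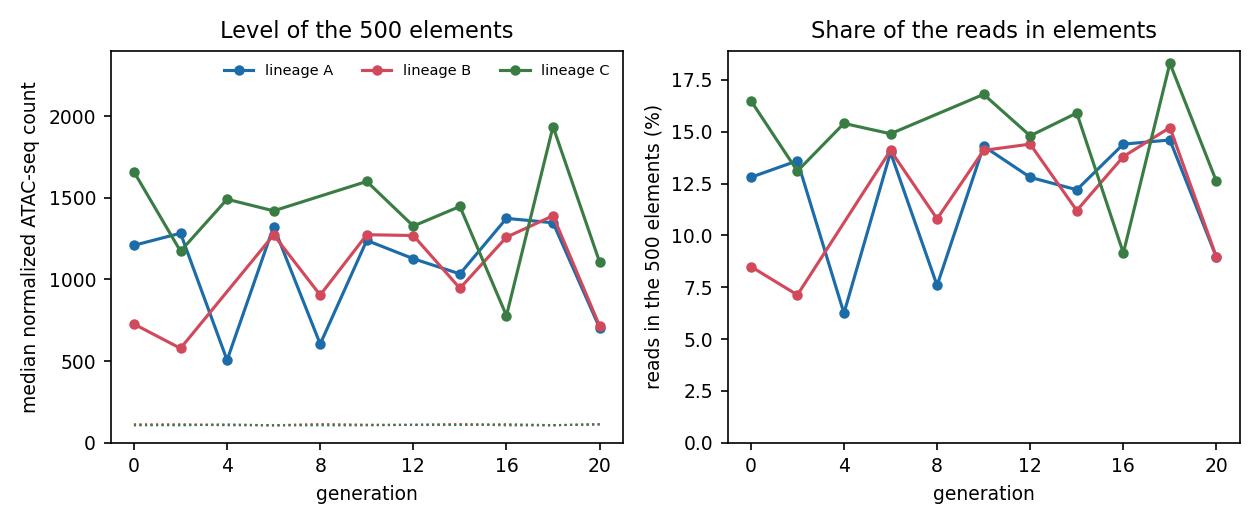
Median normalized ATAC-seq count of the 500 elements (left; dotted lines, the other autosomal elements) and the percentage of reads in elements that they hold (right), by generation, with 1 point per library and a colour per lineage. The median of the 500 elements runs between 506.2 and 1936 with no common course of the 3 lineages. The dotted lines stay between 106.7 and 114.6, where the size factors hold them.

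The movement was graded by level. Against generation 0 of the same lineage, the median log2 change of the members ran between -1.40 in generation 4 of lineage A and 1.05 in generation 18 of lineage B, a range of 2.44. For ranks 1 to 100 the range over libraries was 3.05 and for the other 400 members 2.27. It was 1.68 for the 500 elements next in rank, 1.09 for the 1000 after those and 0.58 between ranks 2000 and 5000. Over all other autosomal elements it was 0.08, a range that the size factors keep small. In generations 4 and 8 of lineage A, 0 of 500 members were above generation 0 of that lineage, and in generation 18 of lineage B 495 were.

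The 3 lineages did not share a direction. The members' median was above generation 0 in 5 of 10 later libraries of lineage A, with a median log2 change of 0.01, in 8 of 9 of lineage B (0.86) and in 1 of 9 of lineage C (-0.25). Lineage B started from the lowest of the generation 0 libraries and lineage C from the highest. At 1 of the 8 generations with a library of every lineage were the 3 lineages on one side of generation 0. At generation 16, for example, the median log2 change was 0.22 in lineage A, 0.91 in lineage B and -1.24 in lineage C.

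The elements with the highest means followed this course closely. At lin-66 the later libraries had a lowest count of 2607, a median of 12004 and a highest of 20205, against 10913, 5144 and 18770 at generation 0 of lineages A, B and C. The lowest value was again generation 4 of lineage A and the highest generation 18 of lineage C, and later and generation 0 values overlapped (log2 difference -0.01 ± 0.63 SE, limma adjusted p = 1). In an intron of pbrm-1, which encodes a bromodomain subunit of SWI/SNF chromatin remodelling complexes, the later libraries ran from 1015 over a median of 5183 to 8010, against 4376, 1773 and 8004 at generation 0. The same libraries were at its extremes and the groups overlapped (log2 difference 0.04 ± 0.52, limma adjusted p = 0.99).

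Beside hmg-1.2, which encodes a high-mobility-group box protein of chromatin, the element had a lowest later count of 981.8, a median of 4600 and a highest of 7272, against 3289, 1465 and 6402 at generation 0. Later libraries lay on both sides of the generation 0 values. Upstream of sys-1, a beta-catenin of the Wnt pathway that directs asymmetric divisions, later counts ran from 1343 over 5696 to 8485, against 4523, 1971 and 8371 at generation 0. Upstream of gsa-1, the alpha subunit of a stimulatory G protein, they ran from 1064 over 4155 to 7536, against 4093, 2179 and 6218 at generation 0. In these elements too, generation 4 of lineage A was lowest and generation 18 of lineage C highest.

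The remaining elements of the highest 10 were nearest to gei-4 (mean 6087), to a snoRNA row, Y40B1A.6 (6082), to a non-coding RNA row, F40F11.6 (5140), to ubc-3, a ubiquitin-conjugating enzyme (4589), and to ocrl-1, an inositol phosphatase (4304). Their lowest later counts, all in generation 4 of lineage A, lay between 1145 and 1477, and their highest between 7369 and 11842. The nearest annotated start to the element inside ocrl-1 belonged to eat-16, an RGS protein that acts on G protein signalling.

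**Figure D2:**
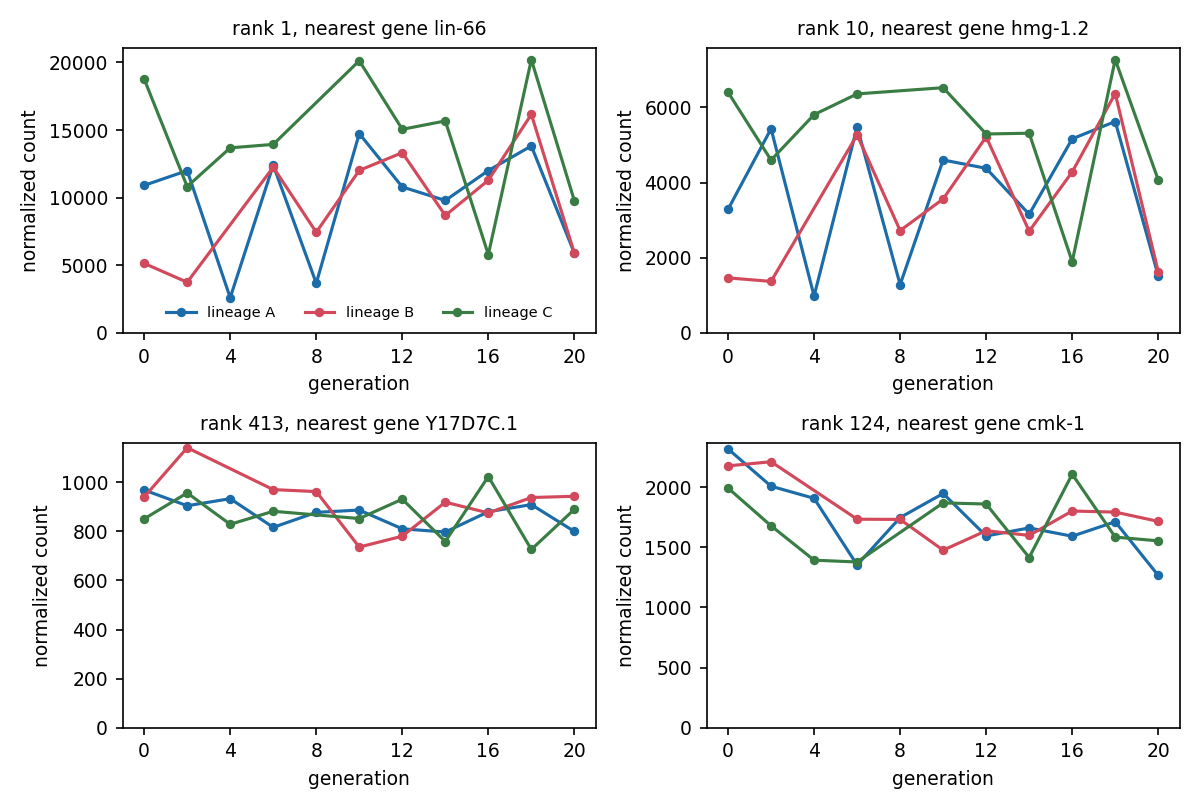
Normalized ATAC-seq count of 4 of the 500 elements by generation, with 1 point per library and a colour per lineage: ranks 1 and 10 (upper row) and 2 of the 5 members with the smallest spread, nearest to Y17D7C.1 and cmk-1 (lower row). The upper elements dip to 2607 and 981.8 in generation 4 of lineage A, whereas the lower elements stay between 725.8 and 1140 and between 1266 and 2210 over the later libraries.

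Spread was measured as the SD of log2(count + 1) over the 28 later libraries after the mean of each lineage had been subtracted. The median member had an SD of 0.53 (quartiles 0.46 and 0.60), the 500 elements next in rank 0.41, the 1000 after those 0.30 and all other autosomal elements 0.28. Counting noise of the recovered reads accounts for an SD of 0.05 in the members and 0.15 in the others, so the members' spread was 11.47 times the counting noise, against 1.90 times. On the linear scale the median coefficient of variation was 34.0% in members and 19.2% in the other autosomal elements. As deposited, the group of elements with the most reads and the smallest counting error had the largest median spread between libraries.

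Most of that spread was common to the members. After the median of the members in each library was subtracted, the median SD was 0.20, and the median share of variance that went with it was 87.2%. A cyclic loess normalization, which removes trends with level between libraries, gave an SD of 0.18 in members, 0.19 in the 500 next in rank, 0.20 in the 1000 after those and 0.26 in the other autosomal elements. The order of the groups was thereby turned round: 488 members had an SD above the median of all elements as deposited (0.28), and 408 had one below that median (0.25) after cyclic loess. Which of the 2 scales describes the embryos was not tested.

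**Figure D3:**
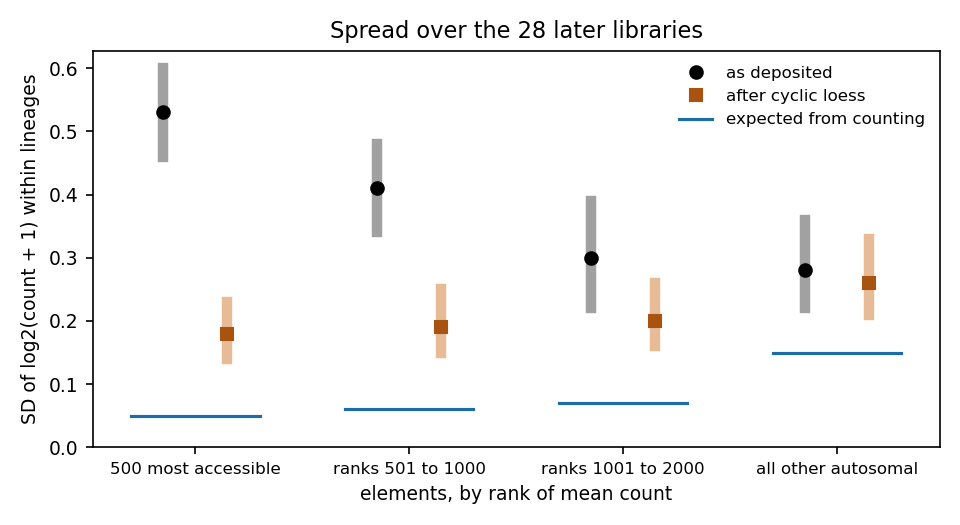
SD of log2(count + 1) over the 28 later libraries within lineages, as the median (points) and quartiles (bars) of the elements in 4 groups by rank of mean count, as deposited (black circles) and after cyclic loess (brown squares), with the SD expected from counting (blue lines). As deposited the median falls with rank, 0.53 in the 500 elements and 0.28 in all other autosomal elements, and after cyclic loess it is 0.18 and 0.26.

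Of the members, 414 had a correlation over 0.9 with the library median of the members over the 28 later libraries, and the median correlation was 0.96. These libraries share their size factors and most members, so the value is a description. The 5 members with the largest SD were all among these 414, at hmg-1.2 (0.80), pbrm-1 (0.79), the element beside the non-coding RNA row ZK20.8 (0.78), the highest of the elements at linc-91 (0.77) and one in zfp-1 (0.75). After cyclic loess their SDs were between 0.11 and 0.16, below the median member. The element nearest to ZK20.8 ran from 870.3 over 3881 to 6171 in later libraries, against 2786, 1436 and 6049 at generation 0, and its nearest coding start was that of din-1, a transcriptional corepressor.

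A small group of members did not take part in the common movement. Correlation with the library median was under 0.5 in 14 members, 6 of them on chromosome II, 8 of them in introns and 2 in 3′ UTRs, and 6 lay within 200000 bases of another of the 14. This group was defined after its values had been seen and was not tested. The lowest correlation, -0.50, was that of rank 413 at V:18708339-18708489, in the 3′ UTR of Y17D7C.1. Its later counts ran from 725.8 over 883.7 to 1140, against 967.8, 939.5 and 850.5 at generation 0, an SD of 0.15, the smallest of the 500. The library with its lowest count was generation 18 of lineage C, in which 387 members were highest.

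The element in an intron of cmk-1, which encodes a calcium/calmodulin-dependent protein kinase, was alike in this respect. It had 1266, 1695 and 2210 normalized counts as the lowest, median and highest of the later libraries, against 2316, 2176 and 1991 at generation 0. Most later libraries lay below the 3 generation 0 values without a call (log2 difference -0.36 ± 0.25, limma adjusted p = 0.62). Rank 61, nearest to the non-coding RNA row Y17D7C.9 and on the same stretch of chromosome V as rank 413, ran from 1607 over 2398 to 3059, against 3085, 2913 and 2902 at generation 0. The others of the 5 members with the smallest spread were in introns of nep-11, a neprilysin-like peptidase (SD 0.19), and of T05A8.8 (0.21). Correlation with the library median was 0.35 for the element in T05A8.8. It was 0.80 for that in nep-11, which is therefore not in the group under 0.5. For all 5 the SD grew after cyclic loess, to between 0.29 and 0.68.

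Whether accessibility differed between later generations and generation 0 was tested by limma on log2(normalized count + 1) over the whole table, with lineage as a block. Of the 500 members 0 passed an adjusted p of 0.05, against 0% of 31498 elements tested. The smallest adjusted p of a member was 0.46, 0 members had an unadjusted p under 0.05, against 11.4% of all elements, and edgeR's quasi-likelihood test on recovered reads called 0, with 1 at an unadjusted p under 0.05. The estimates of the members lay between -0.46 and 0.60 with a median of -0.03. At their median SE of 0.31 the 95% interval reaches 0.61 to either side, and it is narrower for members with a small spread, such as nep-11 (SE 0.18). After cyclic loess the median SE was 0.105, 0 members and 0 of all elements were called, and 102 members (20.4%, against 10.8% of all elements) had an unadjusted p under 0.05, of which 65 were higher in later generations and 37 lower.

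A trend over generations 2 to 20 was called in 0 members, against 0.00317% of all elements. By limma 28 members (5.6%, against 5.42% of all) had an unadjusted p under 0.05, the smallest adjusted p was 0.50, and edgeR called 0, with 25 unadjusted. The median slope was 0.009 log2 units per generation, with 401 members up and 99 down, and since the members moved together these signs are not independent of each other. After cyclic loess 0 members were called, against 11 of all elements, and 143 members (28.6%, against 7.52% of all) had an unadjusted p under 0.05, with a smallest adjusted p of 0.052.

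No member passed the test of a difference between lineages. The mean over later libraries was highest in lineage C for 490 of the 500 members and lowest in lineage A for 350, and the median member had 978.8 in lineage A, 1013 in lineage B and 1306 in lineage C. The moderated F test of limma called 0 members, against 0% of all elements, with a smallest adjusted p of 0.80 and 17 members (3.40%, against 5.29% of all) at an unadjusted p under 0.05; edgeR called 0, with 24 unadjusted. The 500 elements next in rank had the same order, highest in lineage C for 493 of 500, with a median range of 0.35 on the log2 scale, against 0.47 in the members and 0.16 in the other autosomal elements.

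Chromatin-based epimutations were then read from Z-scores, which compare the log2 ratio of each later library to generation 0 of its lineage with a linear model of that ratio on the level of the element. Of 14000 member values 446 (3.19%) lay past the cut-off for an epimutation on either side, which is set between 2 and 3 SDs of the residuals, against 3.06% of all values. Of these 426 were above the cut-off and 20 below. At least 1 such value occurred in 212 members (42.4%), against 30.4% of all elements. The shares were lower in the elements next in rank, with 1.71% of values in the next 500 and 0.896% in the 1000 after those.

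The Z-scores of the members were concentrated in a few libraries. Generation 10 of lineage B had 156 members past the cut-off (31.2%), generation 20 of lineage A 58 (11.6%) and generation 16 of lineage B 49 (9.80%), together 59% of the member values. Without these 3 libraries 1.46% of member values passed, against 3.07% of all values, and in 13 of the 28 libraries under 1% of the members passed. Over all elements the share per library varied little, with 3.01%, 3.33% and 2.49% in the same 3 libraries. Z-scores are scaled by the SD of all elements within each library, which by itself keeps that share nearly constant. In each of the 3 nearly all member values were on the upper side, 153, 58 and 47. A value above the cut-off is high relative to the model and need not be a gain of reads: in generation 20 of lineage A 58 members were above the cut-off, whereas 16 of the 500 were above generation 0 and the median log2 change was -0.85.

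A run of the same sign in consecutive sampled generations counts as inherited. The members had 397 runs, of which 37 (9.32%) were inherited, in 31 members, against 14.4% of the runs of all elements. All 37 were above the cut-off, and most of them were in lineage B. The runs of a lineage share its generation 0 library as the reference, and that of lineage B had the lowest median of the members (727.1). The longest held over 6 sampled generations, 8 to 18 of lineage B, at rank 54 (IV:15646641-15646791), nearest to the non-coding RNA row Y105C5A.1268, and the same element had a run at generations 18 and 20 of lineage A. Rank 86 in zfp-1, which encodes a homologue of the leukemia protein AF10, had a run over generations 6 to 12 of lineage B. Runs over 3 sampled generations of lineage B were also found at hmg-1.2 (8 to 12), at daf-16, the FOXO transcription factor of insulin signalling (10 to 14), and at ccb-1, a calcium channel subunit (10 to 14). The runs named here in lineage B all include generation 10, the library with 31.2% of the members past the cut-off.

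Each member was next assigned to the gene whose span, as the files give it, was nearest to its middle. The 500 members had 455 distinct nearest genes, 324 of them protein-coding. The middle lay inside the span for 227 members, and for the other 273 the median distance was 386 bases and the largest 5807. A non-coding RNA row was nearest to 103 members and a snoRNA row to 11. For 291 members the nearest gene was also the gene of the nearest protein-coding transcript start. Spans in the files can be long: 16 members had a nearest gene with a span over 100 kb, and 68 lay inside a span but between the protein-coding genes of the annotation, among them rank 499 in the span of pck-2, which is given as 130 kb.

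Of the nearest genes 9 had 3 or more members. The gene egl-30, the alpha subunit of a Gq protein, had 4 members (ranks 35, 126, 135 and 490) with a summed mean of 7285, and zfp-1 had 4 (ranks 59, 86, 153 and 169) with 7677. Genes with 3 members were sos-1, a Ras exchange factor, lit-1, a Nemo-like kinase of the Wnt pathway, vhp-1, a MAP kinase phosphatase, lin-42, a Period homologue that times moults, pqn-41, which encodes a glutamine-rich protein, and the non-coding rows linc-91 and F44E5.14. The members of lin-42, lit-1, pqn-41 and zfp-1 all lay inside the span. Rank 34 was inside the span of lin-42 too, but was assigned to the non-coding row F47F6.13, whose end was nearer. Members of one gene share its surroundings and are not replicates.

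Histone genes were nearest to 6 members, 1.32% of the nearest genes against 0.272% of those of all autosomal elements: hil-7, a linker histone variant, and his-2, his-5, his-32, his-42 and his-61. Genes for core histones have near-identical copies, among which the counting may have split reads. Genes of a list of transcription factors numbered 13 (2.86%, against 2.12%), among them hlh-2, the E protein partner of many bHLH factors, tbx-2, a T-box factor, and ceh-20, a Pbx homologue. The list was meant for tissue fate but takes whole families by name, such as nhr-, ztf- and ceh-, so a role in tissue fate is not implied for each gene. Ribosomal protein genes were 2 (0.440%, against 0.632%), rpl-3 and rpl-21. Genes of xenobiotic metabolism and defence were 2 (0.440%, against 2.77%), and 0 came from the lists of cuticle collagens (0.895% of all), of selected signalling ligands and receptors (0.439%), of translation factors (0.228%), of splicing and RNA binding (0.211%) and of the proteasome (0.202%). Each list names only some genes of its function, so that sys-1 and lit-1 of the Wnt pathway, lag-1 and sel-8 of the Notch pathway and the splicing helicase ddx-23, all nearest to members, are in none of them. These shares are counts over lists chosen with earlier results of the data known, with no test.

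The median RNA level of the nearest genes was higher than that of genes nearest to other elements. RNA levels are given as normalized count per kb of span, since counts grow with length, and reads were counted over the whole span with no strand stated. The nearest protein-coding genes of members had a median of 739 per kb (quartiles 257 and 1885, n = 324), genes nearest to other autosomal elements had 266 (48.7 and 871, n = 9185), and all protein-coding rows had 121. Protein-coding genes nearest to the 500 elements next in rank, without those of members, lay in between with a median of 472 (n = 299). A higher level was thus shared in part by the elements just below the limit. Of the 324 genes of members 282 (87.0%) were above the median of all protein-coding rows, 87 (26.9%) were in the highest 10% and 12 (3.70%) in the lowest 25%. With non-coding rows included, the medians were 373 in the 455 nearest genes and 167 in the genes of other elements.

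Within the members, level and RNA were hardly ordered alike. Spearman's rho between the mean of an element and the RNA per kb of its nearest protein-coding gene was 0.10 over 354 members and 0.12 over 21502 autosomal elements, which share genes and are not independent. Non-coding RNA rows nearest to members were nearly silent in the polyA libraries: of 97 rows 87 had a mean under 10, with a median of 8.13 per kb. Rank 34, for example, lay in F47F6.13, a row with a mean of 0.05576 normalized counts and 0 in all generation 0 libraries. This element averaged 3097, but its middle was also inside the span of lin-42, whose RNA averaged 4153.

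**Figure D4:**
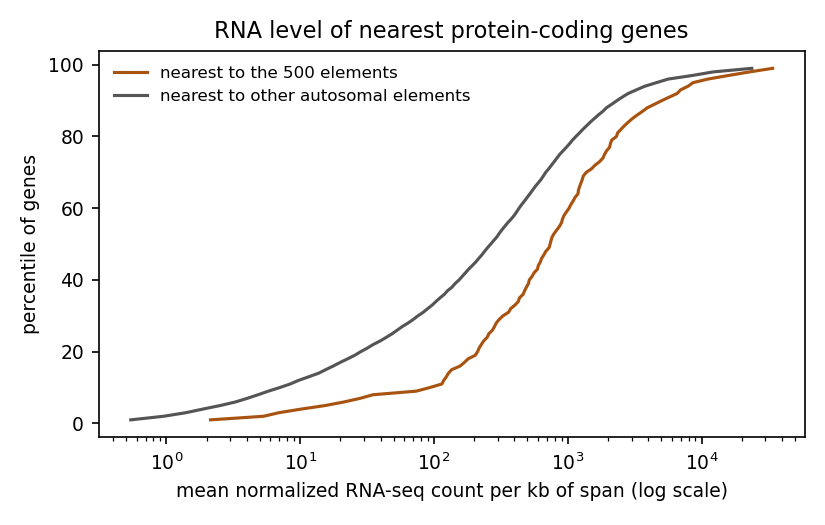
Percentile (vertical) against mean normalized RNA-seq count per kb of span (horizontal, log scale) for protein-coding genes nearest to the 500 elements (brown, n = 324) and nearest to other autosomal elements only (grey, n = 9185). The brown curve lies to the right of the grey one, with medians of 739 and 266.

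At the upper end was cav-1, which encodes a caveolin of the plasma membrane, nearest to rank 221 with 81532 per kb. Its RNA ran from 58376 over 71391 to 98308 in later libraries, against 90627, 104996 and 143586 at generation 0, so that the highest later values passed the lowest of generation 0. It fell by 0.58 on the log2 scale (SE 0.11, limma adjusted p = 0.00016). It was followed by lgg-1, an Atg8 homologue of autophagy, with 77135 per kb, the non-coding row T05E11.9 with 41404, rpl-21 with 39800 and rpl-3 with 35217 per kb, none of which passed that test. The lgg-1 RNA ran from 47208 over 55102 to 90778 in later libraries, against 54608, 63287 and 96255 at generation 0 (limma adjusted p = 0.076).

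From library to library the RNA of the nearest genes moved less than their elements did as deposited. Over the 30 lineage and generation pairs with both data types, the median normalized count of 344 nearest genes ran between 4254 and 5383, a 1.27-fold range, against 3.82-fold for the elements, and Spearman's rho between the library medians was -0.29. This is a description over serial libraries whose size factors centre each data type. The median SD of the RNA within lineages was 0.20 in the nearest genes and 0.27 in all rows tested, and the SD of the members, 0.53 as deposited, was 0.18 after cyclic loess.

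Between later generations and generation 0, 116 of 344 nearest genes tested (33.7%) changed by limma, against 39.6% of 16714 rows. Of these 45 (13.1%, against 17.7%) rose and 71 (20.6%, against 21.9%) fell, and edgeR called 118. The share that rose was below that of the whole table and the share that fell was close to it, and neither difference was tested. The number was lower when a lineage was left out with its generation 0 library and its later libraries. Without lineage B 50 of 344 (14.5%, against 22.3% of all rows) passed, without lineage C 62 (18.0%, against 22.4%) and without lineage A 98 (28.5%, against 36.3%). Which of the libraries left out lowered the number was not tested. The 53 members at genes that rose had a median accessibility change of 0.04, with 31 higher in later generations, the 72 members at genes that fell had -0.10, with 21 higher, and the 258 at genes that did not pass had -0.01, with 126 higher.

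Among genes that rose, the non-coding row Y17D7C.9, nearest to rank 61, had 57.73, 89.05 and 219.5 as the lowest, median and highest of later libraries, against 33.24, 46.42 and 49.19 at generation 0. Every later library was above every generation 0 library (log2 difference 1.10 ± 0.27, limma adjusted p = 0.0017). The counts of C01B10.45, also non-coding, ran from 7.260 over 26.22 to 72.31, against 10.16, 17.41 and 3.279, and those of C07G1.15 from 7.925 over 34.07 to 62.09, against 12.00, 11.60 and 12.02. For both the groups overlapped, with log2 differences of 1.52 ± 0.43 and 1.24 ± 0.42 (limma adjusted p = 0.0054 and 0.02). The call of C01B10.45 was lost without lineage C (adjusted p = 0.12) and that of C07G1.15 without lineage B or C (0.10 and 0.14).

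Among genes that fell, Y47G6A.31 ran from 396.6 over 567.5 to 831.9 in later libraries, against 843.1, 870.4 and 1406 at generation 0. All later libraries were below generation 0 (log2 difference -0.80 ± 0.14, limma adjusted p = 4.3e-05). The histone gene his-2 ran from 46.45 over 78.68 to 219.9, against 94.19, 172.1 and 193.5, and its fall (-0.84 ± 0.27, adjusted p = 0.013) did not pass without lineage B or C (0.19 and 0.057). Y73C8B.3 ran from 696.8 over 957.7 to 2179, against 1580, 1406 and 2134, overlapping at its upper end (-0.76 ± 0.19, adjusted p = 0.0019).

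Of the named genes near the highest elements, sys-1 had 3261, 4472 and 5567 as the lowest, median and highest later counts, against 5229, 6625 and 4826 at generation 0. Its fall of -0.34 ± 0.11 (limma adjusted p = 0.014) was lost without lineage B (0.24). The gsa-1 RNA rose by 0.45 ± 0.15 (adjusted p = 0.019, and 0.36 without lineage C), and vhp-1 by 0.47 ± 0.11 (adjusted p = 0.0011). The RNA of linc-91 ran from 69.46 over 95.49 to 136.7, against 54.48, 62.86 and 75.42, and rose by 0.64 ± 0.17 (adjusted p = 0.0037). Smaller rises passed at nep-11 (0.50 ± 0.16, adjusted p = 0.011, and 0.078 without lineage C), at cmk-1 (0.30 ± 0.11, adjusted p = 0.03, and 0.11 without lineage B or 0.21 without lineage C) and at ocrl-1 (0.21 ± 0.07, adjusted p = 0.021, lost without any one lineage at 0.057 to 0.15). The genes lin-66, gei-4, pbrm-1, hmg-1.2, egl-30, zfp-1, lit-1, sos-1, lin-42 and pqn-41 did not pass, with adjusted p-values between 0.34 and 0.94.

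The list of transcription factors, taken by family name, had 1 gene that rose and 7 that fell of 13 tested, beside 17.7% and 21.9% of all rows. The nuclear hormone receptor gene nhr-88 rose by 0.54 ± 0.11 (limma adjusted p = 0.00037), and ztf-6, hlh-2, ztf-11, ztf-29, ceh-83, nhr-46 and nhr-66 fell, with log2 differences between -0.47 and -0.17. The calls of ztf-11, ztf-29, ceh-83, hlh-2, nhr-46 and nhr-66 were lost without lineage B (adjusted p between 0.071 and 0.23), those of all these but ztf-11 without lineage C (0.066 to 0.25), and that of nhr-66 without lineage A (0.15). In the other lists unc-15, the paramyosin of muscle, rose by 0.60 ± 0.14 (adjusted p = 0.0013), tba-1, an alpha tubulin, fell by 0.52 on the log2 scale (SE 0.13, adjusted p = 0.0017, and 0.056 without lineage B), and of 6 histone genes his-2 alone passed. Neither skn-1, a maternal factor of endoderm and mesoderm, nor gld-2, a cytoplasmic polyA polymerase, passed (adjusted p = 0.87 and 0.66). The 10 embryo and 8 germ line markers that fell moved with these genes, and their part in them was not tested.

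A trend of RNA over generations 2 to 20 was called in 0 of 344 nearest genes by limma, against 0.0239% of all rows, with 55 (16.0%, against 15.9%) at an unadjusted p under 0.05, and in 0 by edgeR, with 58 unadjusted. A difference between lineages was called in 0, against 0.0359% of all rows, with 11 (3.20%, against 4.60%) unadjusted, and in 0 by edgeR, with 11 unadjusted. The smallest adjusted p-values were 0.11 and 0.91.

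22G-RNAs were listed for 247 of the 455 nearest genes (54.3%), against 43.0% of the genes nearest to other elements, and for 246 of the 324 that are protein-coding (75.9%), against 50.9%. Per gene, the listed genes of members had a median of 32.5 normalized 22G-RNA counts, against 26.1. Per kb of span the order was the opposite, with 5.25 (quartiles 1.98 and 13.4), against 8.82 (3.43 and 20.9). Their spans were longer, with a median over all nearest genes of 3.11 kb, against 2.04 kb. The most 22G-RNAs were counted at the F-box gene fbxb-97 (mean 2345, nearest to rank 481), pxd-1 (1699, rank 351), W04A8.9 (1294, rank 491), gsa-1 (1183, rank 9) and somi-1 (1160, rank 208). Of these gsa-1 belongs to one of the 10 highest elements, and its 22G-RNAs ran from 793.2 over 1200 to 1611 in later libraries, against 964.7, 1003 and 878.9 at generation 0. Later small RNA libraries held 106897 to 1504610 reads, the fewest in generation 4 of lineage A, and generation 0 libraries 1008367 to 1611500.

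Between later generations and generation 0, 2 of 195 nearest genes tested (1.03%) changed in 22G-RNAs, against 1.23% of 6180 genes, and edgeR called 2. At tln-1, which encodes talin, a link between integrins and actin, the later libraries had 18.20, 34.34 and 57.73 as lowest, median and highest, against 277.1, 302.1 and 259.8 at generation 0. Every later library of every lineage was below generation 0, already at generation 2 (log2 difference -3.0 ± 0.23, limma adjusted p = 1.7e-11). The tln-1 RNA did not pass (0.30 ± 0.18, adjusted p = 0.20), and its element, rank 179, lay 2364 bases from the span. At ham-1, a gene of asymmetric neuroblast divisions, 22G-RNAs had 20.30, 50.69 and 151.1 as lowest, median and highest, against 16.21, 28.96 and 15.44. Most later libraries were above generation 0, and the rise of 1.36 ± 0.31 (adjusted p = 0.02) was lost without lineage A (0.098) or C (0.44) and without the lineage block (0.18).

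**Figure D5:**
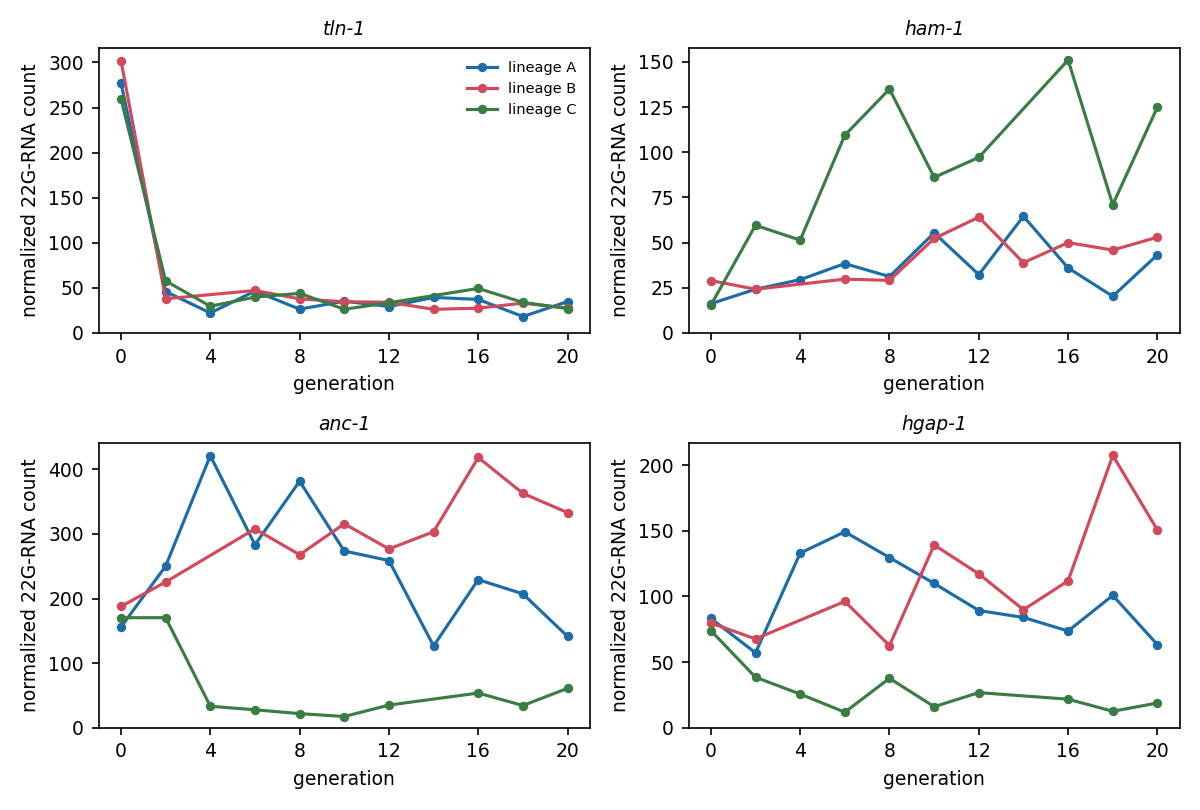
Normalized 22G-RNA count of 4 genes nearest to the 500 elements (tln-1, ham-1, anc-1 and hgap-1) by generation, with 1 point per library and a colour per lineage. At tln-1 all 3 lineages drop to between 18.20 and 57.73 after generation 0, and at anc-1 and hgap-1 lineage C has medians of 34.53 and 21.80, below lineages A and B.

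Lineages differed in the 22G-RNAs of 18 nearest genes of 195 (9.23%), against 8.30% of all genes tested, and edgeR called 20. The widest difference was at anc-1, which encodes a giant protein that anchors nuclei to actin, with later medians of 254.4 in lineage A, 307.7 in lineage B and 34.53 in lineage C, against 155.9, 187.8 and 170.3 at generation 0. In lineage C generation 2 still had 170.4 and all later libraries were at 61.15 or below (F test of limma, adjusted p = 2.5e-09). At hgap-1 the medians were 95.08 in lineage A, 111.9 in lineage B and 21.80 in lineage C, against 83.35, 79.84 and 74.04, and every later library of lineage C, at 11.94 to 38.49, was below all of lineages A and B (adjusted p = 3.9e-09).

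In lineage B it was ccb-1 that stood higher, with a median of 42.26, against 7.293 in lineage A and 8.718 in lineage C (adjusted p = 0.0043), while gcy-35, a soluble guanylate cyclase, was lower there with 6.739, against 28.61 and 23.25 (adjusted p = 0.0036). At ham-1 lineage C was highest with 97.24, against 34.15 and 45.87 (adjusted p = 5.1e-05). The histone gene his-61 had 25.45 in lineage B, against 4.436 and 5.312, at counts that few reads support (adjusted p = 1.1e-05). None of these genes passed for a difference between lineages in RNA or in the accessibility of its element. Between later generations and generation 0 the RNA of ccb-1 rose (0.42 ± 0.08, limma adjusted p = 7.6e-05) and that of gcy-35 fell (-0.45 ± 0.08, adjusted p = 3.4e-05). The RNA of ham-1 fell as well (-0.34 ± 0.11, adjusted p = 0.018), but did not pass without lineage A (0.052) or B (0.15). In that test anc-1, hgap-1 and his-61 did not pass (adjusted p = 0.44, 0.52 and 0.12). The RNA of anc-1 varied widely by itself, between 895.0 in generation 4 and 45204 in generation 8 of lineage A, with 17695, 24163 and 2164 at generation 0 of lineages A, B and C. A trend of 22G-RNAs over generations 2 to 20 was called in 0 nearest genes by limma, against 0.291% of all genes, with 10 (5.13%, against 6.72%) at an unadjusted p under 0.05, and in 0 by edgeR, with 12 unadjusted.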

How the data were processed

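Accessibility, polyA RNA and small RNAs of embryos were measured in 31 libraries each. Per the study's methods, the authors used Bowtie2 and genome WS252 for RNA and ATAC-seq reads and BEDTools to count them over genes or over published promoters and enhancers, aligned small RNAs with Bowtie to ce11 and summed antisense 22G-RNAs per gene, and versions of these programs are not given in the sources used here. The deposited values are signal, namely read counts scaled by DESeq2 size factors. In all libraries 100% of the values were whole multiples of 1 read within 0.001 read, where a value of exactly 1 in the RNA and ATAC-seq tables was read as 0, so reads were recovered.

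Elements were ranked by mean value over the 31 libraries, with names starting chrX left out, and X-linked elements are otherwise not described. Tests used limma 3.58.1 in R 4.3.3, moderated with a robust mean trend, on log2(value + 1) over all features with a mean of at least 10, lineage as a block because libraries of a letter descend from the same founding animals, and Benjamini-Hochberg adjustment at 0.05 over each whole table. edgeR 4.0.16 was run on recovered reads. The scripts were tested on simulated data with known changes. Python 3.11.15, numpy 2.4.6, pandas 2.3.3 and matplotlib 3.10.9 were used. Gene types and exons are from Ensembl release 115, matched for 27522 of 27790 RNA rows. Depth and precision are given with each result, and intervals cover the spread between libraries.

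The genes and elements named are the 10 members with the highest mean, the 5 with the smallest and the 5 with the largest spread, those next to rank 500, up to 3 each way past each test, the 5 nearest genes with the highest and the 5 with the lowest RNA per kb, the 5 with the most 22G-RNAs, genes nearest to 3 or more members, up to 5 for lineage differences, the members with inherited runs given beside their values, and genes of the lists, some of which were chosen after their values were seen. The members and lists were chosen with earlier results of these data known. Alternatives were pseudocounts of 0.5 and 5, no filter, TMM factors, cyclic loess, edgeR, no lineage block, each lineage left out, libraries with few reads left out, other rankings of the members, other rules for the nearest gene, lengths by exons, and other cut-offs and references for Z-scores. DNA sequence, motifs and reads that align to several places were not analysed here.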

Additional observations from a re-analysis of the deposited data

Results flagged for a closer look

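Of 60 groups of 9 or 10 later libraries of a lineage that were examined for a value far from the rest, 7 stood out. The rule flags about 1 in 20 groups of independent, normally distributed values. Several groups here move together, have an upper limit or belong to genes chosen by their values, so that rate need not hold. Generation 4 of lineage A had 352.0 members among its own 500 highest elements, while the other libraries of that lineage had 421.0 to 474.0, and 450.0 among its 1000 highest, while the others had 494.0 to 500. Generation 2 of lineage B had 343.0 among its own 500 highest, while the others had 434.0 to 471.0, and 453.0 among its 1000 highest, while the others had 494.0 to 500. These are libraries with low medians of the members, 506.2 and 578.2 normalized counts. Members past the Z-score cut-off made up 11.60% in generation 20 of lineage A, where the other libraries had 0% to 4.800%, and 31.20% in generation 10 of lineage B, where the others had 0.6000% to 9.800%. The 22G-RNAs of anc-1 in lineage C were 170.4 in generation 2 and 17.51 to 61.15 in its other later libraries. No cause of these values was tested.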

How the results depend on the processing

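The counts of 0 members for accessibility, and of 0 nearest genes for RNA trends and lineage differences, held under the alternatives run. The paired structure of the lineages was kept as a block, and without it 1 nearest gene changed in 22G-RNAs (2 with it), while the RNA count moved by under 1.5 times. With each lineage left out in turn, the RNA changes ran between 50 and 98, the 22G-RNA changes between 1 and 2 and the members past the Z-score cut-off between 1.83% and 4.12%. With the nearest protein-coding gene by transcript start, 22G-RNAs changed in 6 of 251 genes tested between later generations and generation 0 (1.23% of all genes), in 1 over generations (0.291%) and in 29 between lineages (8.30%), and with that by span in 29 of 253 between lineages, where 195 genes were tested in the report. The share past the Z-score cut-off was 5.47% at a cut-off of 2, 0.429% at 3, 5.14% with the lineage median as the reference and 7.46% with a model on the generation 0 value. Median spread was 0.18 after cyclic loess and 0.20 after subtraction of the library median of the members, an alternative added after seeing the data. RNA per kb of nearest genes was 1180 by annotated exons, 900 by transcript start, 735 by protein-coding span and 346 with members ranked at generation 0, and the genes of other elements had 367, 251 and 252 under the first 3 of these. 22G-RNAs per kb were 12.1 by exons and 6.03 by transcript start, against 16.1 and 8.84. Of 303 values of single genes 268 kept their side of the threshold, and their direction where the test has one. The other 35 kept the direction but no longer passed, 30 of these with a lineage left out. None of the values with a direction changed it, and the F tests between lineages have none. With 3 generation 0 libraries, and 22G-RNA libraries of as few as 106897 reads, small differences were not detectable.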
